A study of Mus musculus with 6 samples.

Results

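The miR-17 seed family is the group of mouse miRNAs whose 5p arms carry the same bases 2 to 8 as miR-17-5p. Its members were taken by name, as the entries called miR-17, miR-20a, miR-20b, miR-93, miR-106a or miR-106b with the suffix -5p. Of these 6 names, 4 were found among the 718 entries of the deposited table, namely mmu-miR-17-5p, mmu-miR-20a-5p, mmu-miR-93-5p and mmu-miR-106b-5p, written below without the species prefix. miR-20b-5p and miR-106a-5p were not analysed here, nor was miR-6383, which has the same bases 2 to 8 but is not among these names. The table gives miRNA levels in small extracellular vesicles (sEVs) released by cultured islets of wild-type C57BL/6J mice (spelled C57/B6J in the sample labels). Vesicles of islets from mice fed a normal chow diet (NCD) are called nid-sEVs, and those of islets from mice fed a high-fat diet (HFD) are called aid-sEVs. Each group has 3 libraries, called NCD 1, NCD 2 and NCD 3 (nid-sEVs) and HFD 1, HFD 2 and HFD 3 (aid-sEVs). The study describes its HFD mice in general as fed for 9 weeks, and the islets of both groups were kept for 48 hours in serum-free medium before the vesicles were collected by ultracentrifugation. The mice of the study's diet time course were 8 weeks old at its start. The number and age of the mice behind each library are not given in the sources used here, so the p-values measure the spread between these libraries only.

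A miRNA guides an Argonaute protein to messenger RNAs, mainly by base pairing of its seed, and lowers their translation and stability. miRNAs with 1 seed can therefore share targets even when they are made from different genes. The miR-17-92 cluster is induced by MYC, is known as an oncogenic miRNA cluster and is abundant in dividing and blood-forming cells. The miR-106b-25 cluster is a paralog that is transcribed with the gene of a DNA replication helicase subunit. Known targets of the family include the cell cycle inhibitor Cdkn1a and members of the E2F family.

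The mature sequences of the 4 members are shown with those of miR-20b-5p and miR-106a-5p, which were not analysed here. They share a seed and differ in few of their other bases, so that reads can be divided between them. They are RefSeq sequences of GRCm38.p6, written 5′ to 3′, and the capitals mark the seed.
miR-17-5p: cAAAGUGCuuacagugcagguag
miR-20a-5p: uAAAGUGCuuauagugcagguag
miR-93-5p: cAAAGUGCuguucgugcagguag
miR-106b-5p: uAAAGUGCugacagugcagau
miR-20b-5p: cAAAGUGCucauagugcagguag
miR-106a-5p: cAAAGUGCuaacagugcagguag
Of the 479 entries with a miRBase name, 424 could be matched to RefSeq sequences, and the same 4 members, 0.943% of the matched entries, were the ones with this seed. Counted from 1 at the 5′ end, miR-17-5p and miR-20a-5p differ by 2 bases, C1U and C12U. miR-17-5p and miR-106a-5p differ by the single change U10A. The products of the other cluster are further away, with 4 differences over 23 bases between miR-17-5p and miR-93-5p and 3 differences over the 21 bases of miR-106b-5p. miR-93-5p and miR-106b-5p, which come from neighbouring hairpins, differ from each other by 5 bases over that length. How reads with mismatches or several possible origins were assigned is not given in the sources used here, so the division of reads between miR-17-5p, miR-20a-5p and their relatives on the X chromosome is uncertain.

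The members come from 2 loci. Mir17 and Mir20a lie on the plus strand of chromosome 14, chr14:115043671-115043754 and chr14:115044157-115044263 of GRCm38, in a row of 6 hairpins within 836 bases. Both overlap an exon of the long non-coding RNA gene Mir17hg, which spans chr14:115042879-115046727. Mir106b and Mir93 lie on the minus strand of chromosome 5, chr5:138165737-138165818 and chr5:138165523-138165610, in a row of 3 hairpins within 498 bases. They sit inside the protein-coding gene Mcm7 on the same strand, chr5:138164583-138172422, whose product is part of the replication helicase. Mir106b overlaps no exon of the 2 annotated Mcm7 transcripts that span it, and Mir93 overlaps an exon in 1 of 3. Mir106a and Mir20b belong to a paralogous row of 6 hairpins on the X chromosome, which also holds Mir363.

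The members were counted by few reads, and this sets how firmly their values can be read. RPM is the number of reads of an entry scaled to a common library total. Since all RPM values were whole multiples of the value of 1 read, the reads themselves were recovered. The nid-sEV libraries held 50534 to 129152 reads and the aid-sEV libraries 122266 to 519315. A floor was set at 3 reads, which came to 23.2 to 59.4 RPM in nid-sEVs and 5.78 to 24.5 RPM in aid-sEVs. All intervals of RPM and of shares are 95% Wilson intervals, and intervals and floors cover counting error only. NCD 3 stood apart. It was the shallowest library, 417 entries were at 0 reads in it, and miR-375-3p, the leading miRNA of islet endocrine cells, took 34.6% of its reads, against 13.6% to 16.4% in the aid-sEV libraries. In NCD 1, unnamed entries, which have no miRBase name, held 33.4% of the reads, against 6.61% to 9.45% in the other libraries. Values that rest on either library are given without it below.

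Of the miR-17-92 members, miR-20a-5p was the more abundant. It had 56, 12 and 0 reads in NCD 1, 2 and 3, or 434, 183 and 0 RPM. In HFD 1, 2 and 3 it had 11, 11 and 6 reads, or 21.2, 31.2 and 49.1 RPM. Thus 2 nid-sEV libraries lay above all aid-sEV libraries and the third lay below them, and the groups overlapped. The mean was 205 ± 218 RPM in nid-sEVs and 33.8 ± 14.1 RPM in aid-sEVs (SD, n = 3), a ratio of 6.07, but the mean difference on the log2(RPM + 1) scale was -0.39 (SE 2.30), and -3.10 (SE 0.69) without NCD 3. The adjusted p was 0.92 by limma, and 0.054 without NCD 3. At the mean level of the other nid-sEV libraries, NCD 3 would have held 15.6 reads of miR-20a-5p. The floor of 3 reads in NCD 3, 59.4 RPM, lies above the level in each aid-sEV library.

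miR-17-5p, after which the family is named, was detected in 2 of the 6 libraries. It had 4, 8 and 0 reads in NCD 1, 2 and 3, or 31.0, 122 and 0 RPM, and 0 reads in every aid-sEV library. The aid-sEV libraries together hold 993825 reads, and the floors of 3 reads are 5.78, 8.52 and 24.5 RPM in HFD 1, 2 and 3. At the nid-sEV mean of 50.9 ± 63.3 RPM (SD, n = 3), those libraries would have held 26.4, 17.9 and 6.23 reads. The nid-sEV mean was 2.08 times the highest aid-sEV floor, but the groups overlapped at 0. The log2 fold change was -3.98 ± 1.80 (SE; limma, adjusted p = 0.22), a size that depends on the added 1.

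The members from Mcm7 had another pattern. miR-93-5p was the only member detected in all 6 libraries. It had 25, 9 and 1 reads in NCD 1, 2 and 3, or 194, 137 and 19.8 RPM, and 89, 67 and 25 reads in HFD 1, 2 and 3, or 171, 190 and 204 RPM. The aid-sEV libraries were close to each other, NCD 1 lay among them and NCD 3 lay far below. The means were 117 ± 88.6 and 189 ± 16.6 RPM (SD, n = 3), with a log2 fold change of 1.20 ± 0.95 (SE; limma, adjusted p = 0.43). Its 95% interval ran from -1.10 to 3.50, so neither a fall nor a large rise could be told apart from no change. The 1 read of NCD 3 compares with 9.54 reads at the aid-sEV mean level.

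miR-106b-5p had 9, 0 and 0 reads in NCD 1, 2 and 3 and 8, 15 and 6 reads in HFD 1, 2 and 3. In RPM these are 69.7, 0 and 0 against 15.4, 42.6 and 49.1, so that the highest library was of nid-sEVs and the groups overlapped. The means were 23.2 ± 40.2 and 35.7 ± 17.9 RPM (SD, n = 3). The log2 fold change of 2.99 ± 1.85 (SE; limma, adjusted p = 0.31) rests on the libraries at 0, where at the aid-sEV mean level only 2.34 and 1.80 reads would have been seen in NCD 2 and NCD 3.

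**Figure D1:**
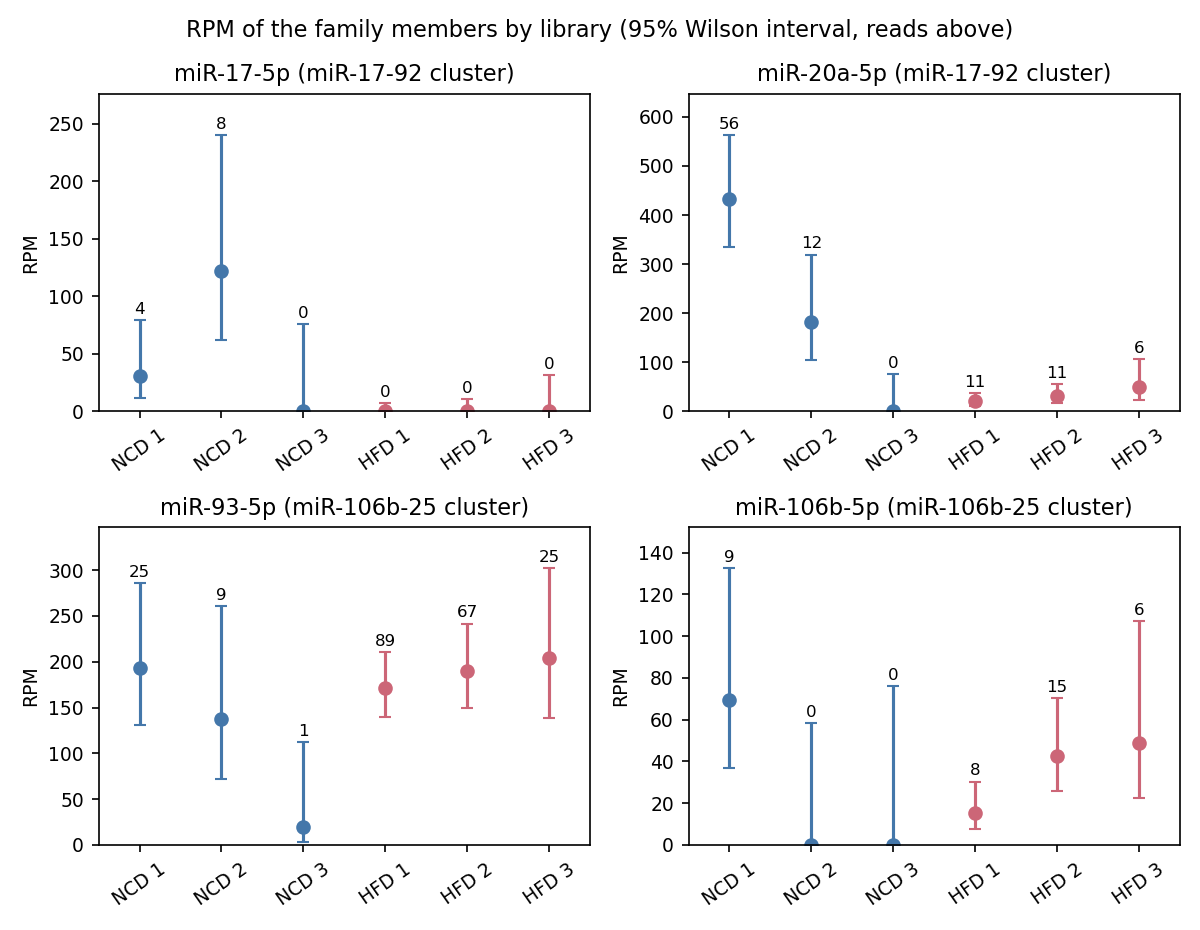
RPM (vertical axis, linear, a scale of its own in each panel) of the 4 members in each library of nid-sEVs (blue, NCD) and aid-sEVs (red, HFD); points are single libraries, bars are 95% Wilson intervals and the numbers above are reads. miR-17-5p and miR-20a-5p were highest in NCD 1 and NCD 2 and at 0 reads in NCD 3, while miR-93-5p had 171 to 204 RPM in the 3 HFD libraries.

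None of the 4 members passed the test, for which the log2 fold change had to exceed 1 in size and the adjusted p to lie under 0.05. By limma over all 718 entries, 0 of 4 members were called and 0 of 4 had an unadjusted p under 0.05, where 17.4% of all entries were called and 27.9% had such a p. edgeR's quasi-likelihood test on the recovered reads kept only miR-93-5p after its filter on low counts, with a log2 fold change of 0.52 and an adjusted p of 0.57, and did not call it, where 28.2% of the 245 entries it tested were called. Without that filter it called 0 of 4, where it called 56 of the 718 entries higher and 7 lower. Only miR-17-5p then had an unadjusted p under 0.05, with an adjusted p of 0.089. DESeq2 also called 0 of 4, where it called 65 of the 718 entries higher and 50 lower. It gave 2 members an unadjusted p under 0.05, namely miR-17-5p with an adjusted p of 0.061 and miR-20a-5p with one of 0.11. For these tests the share of all entries with such a p was not counted. By direction, limma called 15.6% of all entries higher in aid-sEVs and 1.81% lower, and edgeR 19.6% and 8.57% of those it tested. The groups overlapped for all 4 members, whereas 31.8% of all entries had groups that did not. In the two-sided exact permutation test on log2(RPM + 1), p was 0.4 for miR-17-5p, 1 for miR-20a-5p, 0.3 for miR-93-5p and 0.4 for miR-106b-5p, and 0.1 is the smallest value that 3 libraries against 3 allow. The members' median log2 fold change was 0.41, beside 1.11 for all entries and -0.21 for the 219 entries detected in every library.

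By level, the order of the members in aid-sEVs was miR-93-5p, then miR-106b-5p and miR-20a-5p, then miR-17-5p. The mature lengths of 21 to 23 bases are close, and no correction for length was made. miR-93-5p lay above the other members in every aid-sEV library, and its Wilson intervals did not overlap theirs. miR-106b-5p and miR-20a-5p, with means of 35.7 and 33.8 RPM, did not differ beyond their spread. In nid-sEVs the means fell in the order miR-20a-5p, miR-93-5p, miR-17-5p and miR-106b-5p, and the SD exceeded the mean for all of them but miR-93-5p, so that no neighbours in that order differed beyond their spread. Even miR-93-5p was a minor miRNA, ranking 166 to 181 by RPM among the 718 entries in the aid-sEV libraries and 154 to 279 in the nid-sEV libraries.

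Compared by host cluster, the family was divided differently in most libraries of the 2 groups. The summed reads of miR-93-5p and miR-106b-5p made up 34 of 94 family reads in NCD 1, or 36.2% (27.2% to 46.2%), and 9 of 29 in NCD 2, or 31.0% (17.3% to 49.2%). NCD 3 had a single family read, of miR-93-5p, and so its share of 100% (20.7% to 100%) carries almost no information. The shares in HFD 1, 2 and 3 were 97 of 108, 82 of 93 and 31 of 37 reads. These are 89.8% (82.7% to 94.2%), 88.2% (80.1% to 93.3%) and 83.8% (68.9% to 92.3%). The 3 aid-sEV libraries thus agreed within counting error, and their intervals lay above those of NCD 1 and NCD 2. The mean difference was 31.5 percentage points with all libraries, less than the SD of 38.4 percentage points in nid-sEVs, and 53.7 without NCD 3. No p is given for a quantity summed over members, because they were chosen with results known.

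The part of the family made from Mir17hg had 465, 305 and 0 RPM in NCD 1, 2 and 3 and 21.2, 31.2 and 49.1 RPM in the HFD libraries. The part made from Mcm7 had 263, 137 and 19.8 RPM and 187, 233 and 254 RPM in the same order. The family sum ran from 19.8 to 728 RPM in nid-sEVs and from 208 to 303 RPM in aid-sEVs, and the groups overlapped. The libraries closest in depth were NCD 1, with 129152 reads, and HFD 3, with 122266. Unnamed entries held 33.4% of the reads in NCD 1 and 9.22% in HFD 3, so the depth in named entries was less alike. Between these, miR-93-5p had 25 and 25 reads and miR-106b-5p 9 and 6, while miR-20a-5p had 56 and 6 and miR-17-5p 4 and 0. For miR-20a-5p the intervals of 334 to 563 RPM and 22.5 to 107 RPM did not overlap.

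**Figure D2:**
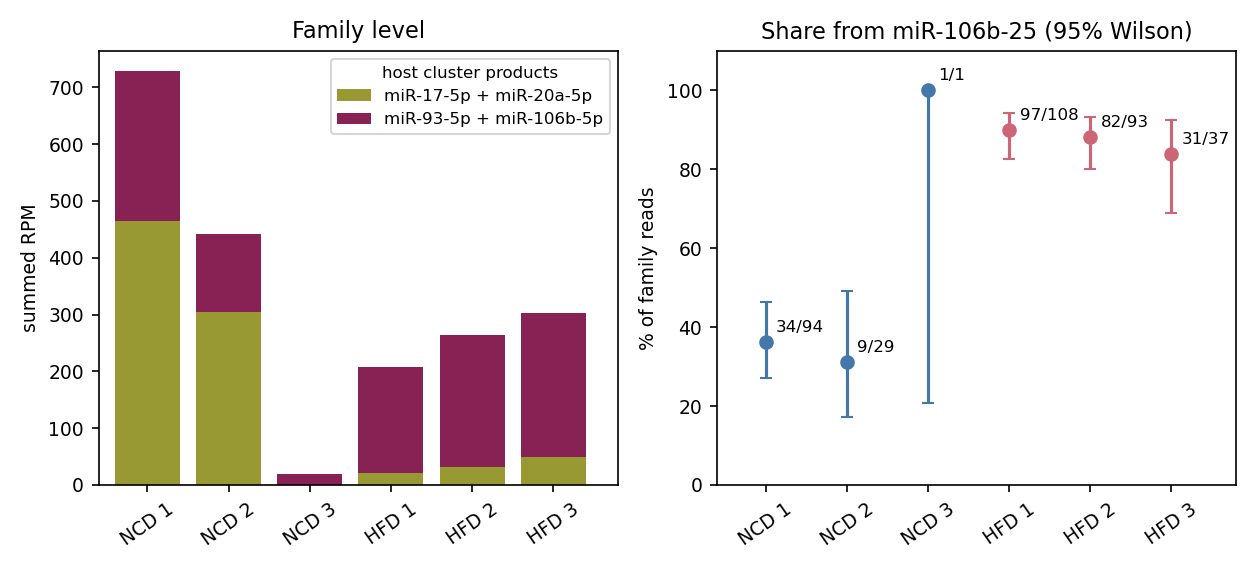
Left, summed RPM of the members from the miR-17-92 cluster (miR-17-5p and miR-20a-5p) and from the miR-106b-25 cluster (miR-93-5p and miR-106b-5p), stacked for each library. Right, percent of family reads from the miR-106b-25 cluster with 95% Wilson intervals and the reads behind each share; the HFD libraries sit between 83.8% and 89.8%, NCD 1 and NCD 2 at 36.2% and 31.0%, and NCD 3 rests on 1 read.

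The other products of the host clusters give the setting of the members. Of 22 further mature products on the lists of the 3 clusters, 7 were found in the table, and limma called 0 of them higher and 0 lower, where it called 17.4% of all entries. Of the 7, miR-25-3p had an unadjusted p under 0.05, as did 27.9% of all entries. edgeR's quasi-likelihood test called neither miR-25-3p nor miR-106b-3p, the 2 that passed its filter, where it called 28.2% of the entries it tested. Without the filter it called 0 of 7, with miR-25-3p alone at an unadjusted p under 0.05. DESeq2 called 0 and gave 0 such a p, but left the adjusted p of miR-93-3p undefined. Over all 718 entries, edgeR without the filter called 56 higher and 7 lower, and DESeq2 65 and 50. The remaining products of miR-106b-25 were all present. The arms of these hairpins had unequal numbers of reads, so these products are shown with their seeds in capitals.
miR-106b-3p: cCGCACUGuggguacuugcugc
miR-93-3p: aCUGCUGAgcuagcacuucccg
miR-25-3p: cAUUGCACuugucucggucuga
miR-25-5p: aGGCGGAGacuugggcaauugc

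For miR-106b it was the 3p arm, which carries another seed and is outside the family, that dominated. It had 48, 12 and 0 reads in NCD 1, 2 and 3 and 217, 197 and 46 reads in HFD 1, 2 and 3. The family member miR-106b-5p was 15.8% (8.54% to 27.4%) of the reads of both arms in NCD 1 and 0% (0 of 12 reads, 0% to 24.2%) in NCD 2, and NCD 3 had no read of either arm. In HFD 1, 2 and 3 it was 3.56%, 7.08% and 11.5%, between the shares of NCD 2 and NCD 1. For miR-93, the hairpin beside it, the 5p arm took 100% of 25, 9 and 1 reads in nid-sEVs and 95.7%, 94.4% and 100% of 93, 71 and 25 reads in aid-sEVs. miR-93-3p had 4, 4 and 0 reads in aid-sEVs and 0 in every nid-sEV library, whose floors lie above its aid-sEV levels of 7.70, 11.4 and 0 RPM. The family member was therefore the minor arm of 1 hairpin and the major arm of the next in every library that had reads of both hairpins.

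miR-25-3p, which has the seed of miR-92a and not that of miR-17, was the most abundant product of the cluster. It had 3964, 1112 and 534 RPM in NCD 1, 2 and 3 and 3807, 5706 and 5177 RPM in HFD 1, 2 and 3, with NCD 1 among the aid-sEV libraries. Its log2 fold change was 1.86 ± 0.75 (SE; limma, adjusted p = 0.17), and 1.20 without NCD 3. The ratio of miR-25-3p to miR-93-5p reads was 20.5, 8.11 and 27 in NCD 1, 2 and 3 and 22.2, 30 and 25.3 in HFD 1, 2 and 3, and the groups overlapped. miR-106b-3p was higher in each of HFD 1, 2 and 3 than in any NCD library, as were 24.2% of all entries, but the gap between 376 RPM in HFD 3 and 372 RPM in NCD 1 was within counting error. Its log2 fold change was 3.45 ± 2.22 (SE; limma, adjusted p = 0.33), but 0.77 ± 0.49 (SE) without NCD 3 and 5.04 without NCD 1. The log2 fold change of miR-25-5p was 2.74, but 1.08 without NCD 3 and 4.05 without NCD 2, and that of miR-93-3p was 2.25. Neither was called, and the median of all entries was 1.11 on the same scale.

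**Figure D3:**
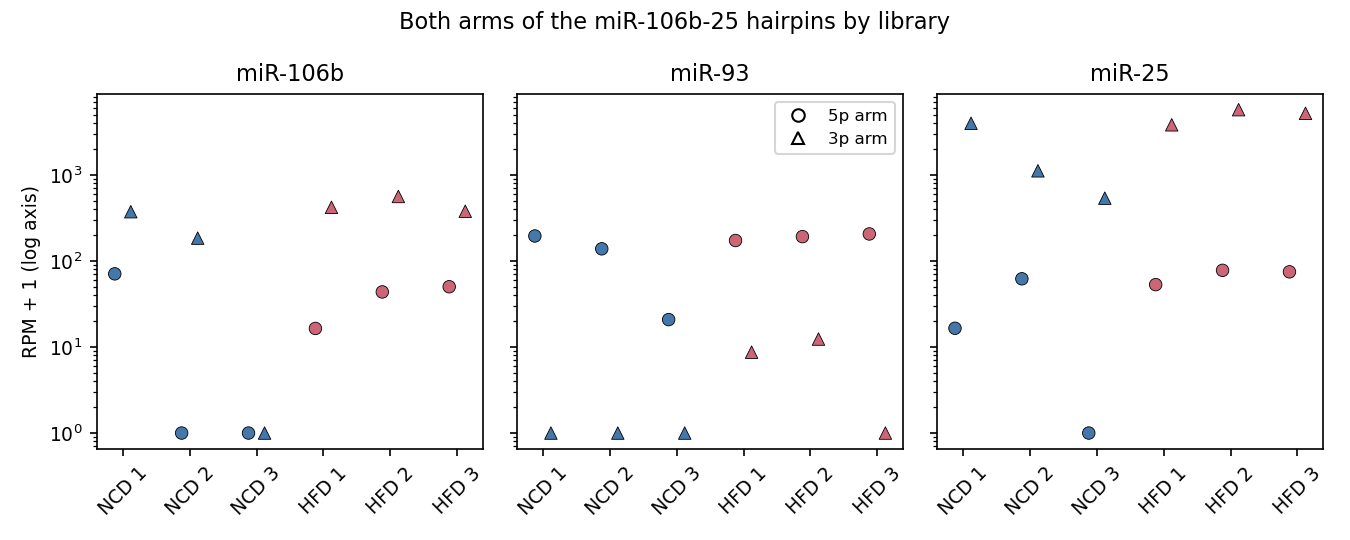
RPM + 1 (log axis) of the 5p arm (circles) and 3p arm (triangles) of miR-106b, miR-93 and miR-25 in each NCD (blue) and HFD (red) library; 1 on the axis stands for 0 reads. The 3p arm is the higher one for miR-106b and miR-25 and the 5p arm for miR-93, in every library with reads of the hairpin.

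From the miR-17-92 side, miR-19b-3p and miR-92a-3p were found, each of which is also made from the X-linked row of hairpins. miR-19b-3p had 92.9, 45.7 and 0 RPM in NCD 1, 2 and 3 and 17.3, 17.0 and 24.5 RPM in the HFD libraries, the same arrangement as miR-20a-5p. However, miR-19b-3p had only 3 reads in NCD 2, and its interval there, 15.5 to 134 RPM, overlapped those of all aid-sEV libraries. Its log2 fold change was 0.32 ± 1.79 (SE; limma, adjusted p = 0.92). miR-92a-3p had 69.7, 122 and 79.2 RPM against 63.5, 31.2 and 49.1 RPM. It was thus lower in every aid-sEV library, as were 7.52% of all entries, but NCD 1 (36.7 to 132 RPM) and HFD 1 (45.3 to 89.2 RPM) had overlapping intervals. It had a log2 fold change of -0.91 ± 0.65 (SE; limma, adjusted p = 0.38). miR-363-3p, the one product found that is made only from the X-linked row, had 8, 7 and 0 reads in NCD 1, 2 and 3 and 13, 5 and 0 in HFD 1, 2 and 3, with a log2 fold change of -1.37 (adjusted p = 0.73 by limma).

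**Figure D4:**
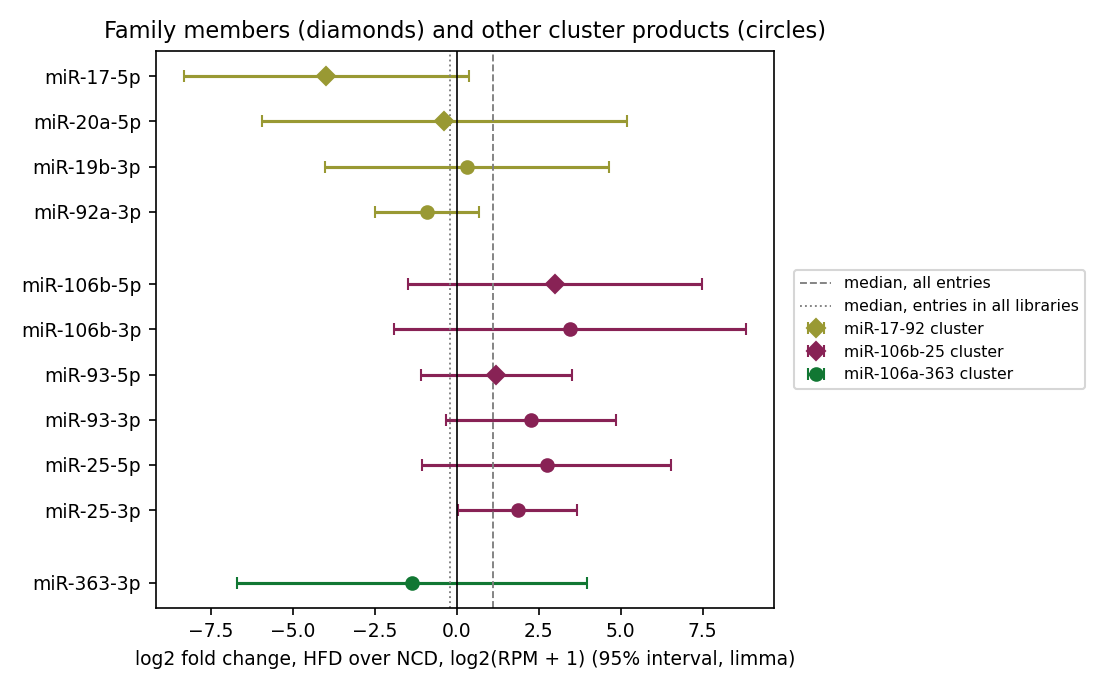
Log2 fold change between aid-sEVs (HFD) and nid-sEVs (NCD, the reference) on the log2(RPM + 1) scale with 95% intervals from limma, for the family members (diamonds) and the other products found (circles), coloured by host cluster; miR-19b-3p and miR-92a-3p are drawn with miR-17-92 but have a further copy on the X chromosome. The 6 products of miR-106b-25 lie between 1.20 and 3.45, miR-17-5p and miR-20a-5p at -3.98 and -0.39, and the interval of miR-25-3p alone stays above 0; no product was called, and the median of all entries (dashed line) is 1.11.

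Levels of miRNAs typical of other cells moved between the same libraries. The sum of the 6 red cell and liver miRNAs on the list, all 6 of them found, was 4670 to 14502 RPM in nid-sEVs and 752 to 1579 RPM in aid-sEVs, where miR-144-5p was at 0 reads in every library, and limma called 2 of the 6 lower, miR-486a-5p and miR-122-5p, where it called 1.81% of all entries lower. The 5 leukocyte miRNAs, all found, summed to 152 to 435 RPM in nid-sEVs and to 24.5 to 38.5 RPM in aid-sEVs, and limma called 1 of them lower, miR-150-5p. Both sums were lower in aid-sEVs without overlap of the groups, an arrangement that 7.52% of all single entries had. Of the listed miRNAs, miR-451a, miR-486a-5p, miR-122-5p and miR-150-5p had it, and the rest of both lists overlapped between the groups. For example, miR-486b-5p had 480 RPM in HFD 2 and 59.4 RPM in NCD 3. The groups also overlapped for miR-17-5p and miR-20a-5p, whose aid-sEV levels lay below NCD 1 and NCD 2 only. In NCD 3, where those members had 0 reads, the sums were 4670 and 435 RPM, mostly of miR-486a-5p (3978 RPM) and miR-150-5p (416 RPM). On the first list miR-451a and miR-122-5p had 218 and 396 RPM there, and miR-144-5p had 0 reads. On the second, miR-142a-3p, miR-142a-5p and miR-223-3p had 0 reads there and miR-155-5p had 1. The 4 islet endocrine miRNAs, all found, summed to 74718 to 360886 RPM in nid-sEVs and 164821 to 186134 RPM in aid-sEVs, and limma called 1 of them higher, miR-7b-5p (log2 fold change 1.84, adjusted p = 0.010), where it called 15.6% of all entries higher. The mesenchymal, endothelial and acinar lists, whose 5, 2 and 3 miRNAs were all found, summed to 5383 to 24080, 989 to 3717 and 2533 to 8997 RPM in nid-sEVs and to 4480 to 11623, 679 to 1325 and 698 to 3370 RPM in aid-sEVs, and the lowest adjusted p among these miRNAs by limma was 0.13, for miR-145a-5p. The part of these cells in the values of the family was not tested. In such samples, fewer cells of a type and less vesicle RNA released by each cell cannot be told apart.

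Likeness of pattern was measured as the root mean square distance between centred log2(RPM + 1) profiles over the 6 libraries, among the miRBase-named entries detected in all of them. For miR-93-5p the closest of 177 entries were miR-30c-5p, at a distance of 0.30, and miR-21a-5p, at 0.34, where the median distance was 1.37. miR-30c-5p had 1727, 1294 and 297 RPM in nid-sEVs and 1935, 1527 and 1603 RPM in aid-sEVs, with the same low value in NCD 3. The nearest entries of the other members were further away. They were miR-122-5p and miR-5110 for miR-17-5p, at 1.36 and 1.44, miR-101a-3p and miR-5110 for miR-20a-5p, at 1.61 and 1.79, and miR-199a-3p and miR-25-3p for miR-106b-5p, at 1.37 and 1.46. The median distances for these members were 2.88, 2.77 and 2.73, in the same order. The compared entries had reads in every library and these members did not, so their distances cannot be set against those of miR-93-5p. Profiles with libraries at 0 reads depend on the added 1, so these last 3 pairs are loosely determined.

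Leaving out each library in turn showed which values rest on 1 library. Without NCD 3, the log2 fold change of miR-17-5p was -5.97 (SE 1.01) and its adjusted p 0.032 by limma, so that this member was called. All aid-sEV libraries were at 0 reads of it, so this size and its SE depend on the added 1. The log2 fold change of miR-17-5p was -3.47 without NCD 1 and -2.50 without NCD 2, and it was called in neither fit. NCD 2 held 8 of its 12 reads. Of the 718 entries, 61 were called higher and 11 lower without NCD 3. In the same fit miR-20a-5p lay at -3.10, not called, and miR-93-5p moved to 0.21 (SE 0.44, adjusted p = 0.77). Without NCD 1, miR-106b-5p was called, with 5.04 (SE 0.87, adjusted p = 0.019), but then both remaining nid-sEV libraries were at 0 reads and the size depends on the added 1. In that fit 150 of the 718 entries were called higher and 26 lower. miR-20a-5p turned to 1.28 there and to 0.66 without NCD 2. Leaving out any of the aid-sEV libraries made no member called. Among the other cluster products, limma called miR-25-3p without NCD 1, with 2.65 and an adjusted p of 0.020, and miR-93-3p without HFD 3, with 3.37 and an adjusted p of 0.011. Every nid-sEV library was at 0 reads of miR-93-3p, so its size depends on the added 1. Without HFD 3, 129 of the 718 entries were called higher and 8 lower.

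**Figure D5:**
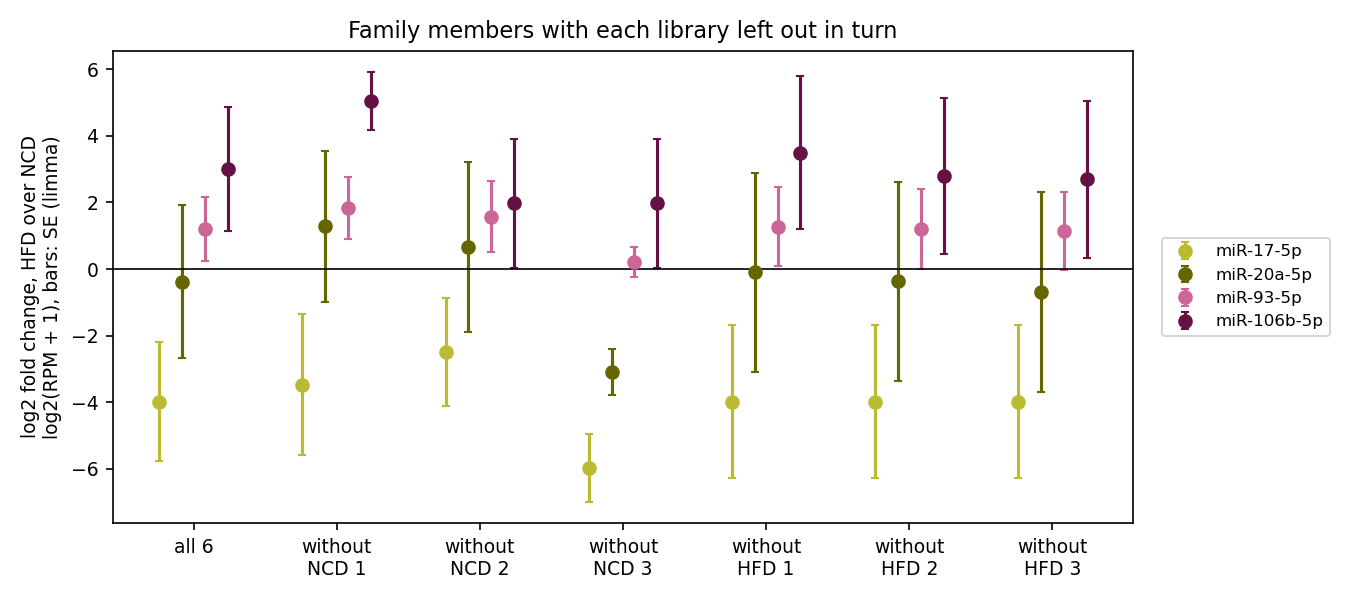
Log2 fold change between aid-sEVs (HFD) and nid-sEVs (NCD, the reference) on the log2(RPM + 1) scale for the 4 members, with all 6 libraries and with each library left out in turn; bars are standard errors from limma. Without NCD 3, miR-17-5p and miR-20a-5p lie at -5.97 and -3.10 and miR-93-5p at 0.21; without NCD 1, miR-106b-5p lies at 5.04.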

How the data were processed

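Small RNA libraries, each from 5 ng of sEV RNA, were sequenced once each by a company. The authors deposited 1 table, in which levels are RPM, reads scaled to a common total per library. The authors' deposited columns of log2 fold change, log2 mean abundance, p-value and false discovery rate were not used. The submitters' processing notes name fastp 0.23.0, HISAT2 2.2.1 and GRCm38, without their roles; the miRNA reference and filters are not given in the sources used here.

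The RPM of 1 read was the smallest value above 0, and 100% of the values were whole reads within 0.01 read. Groups came from the sample labels. limma 3.58.1 (lmFit, eBayes with trend, R 4.3.3) was fitted to log2(RPM + 1) of all 718 entries with group as the only term and Benjamini-Hochberg adjustment, so fold changes of low entries depend on the pseudocount. edgeR 4.0.16 and DESeq2 1.42.0 on recovered reads were alternatives. The tests were run on simulated counts with the same set spread for all entries and libraries, where only entries above a set level were changed. That run does not show how the tests perform at the spread of the nid-sEV libraries or for entries with few reads. Members and lists were chosen with earlier results of these data known. All listed members, all listed products of their host clusters and the 2 nearest profiles of each member were named. Sequences are from RefSeq, and host genes from GENCODE M21.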

Additional observations from a re-analysis of the deposited data

How the results depend on the processing

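With 3 libraries a group and 0 to 89 reads a member, the depth limits every statement on the family. Under 18 alternatives, the count of members called stayed at 0, except that it ran from 0 to 1 when libraries were left out in turn (1 without NCD 1 and 1 without NCD 3). The count of other cluster products called was also 0, and ran from 0 to 1 in the same way (1 without NCD 1 and 1 without HFD 3). The direction of miR-93-5p and miR-106b-5p held in each alternative that tested them. For miR-106b-5p it rests on the 0 reads of NCD 2 and NCD 3, and its log2 fold change was only 0.42 with DESeq2 and 0.71 with edgeR without a filter. miR-17-5p also kept its direction, but with 0 reads in every aid-sEV library the alternatives could hardly have turned it. That of miR-20a-5p turned to 0.68 with a pseudocount of 0.1, to 0.11 with RPM divided by TMM factors, and ranged from -3.10 to 1.28 when libraries were left out. miR-19b-3p turned to -0.39 with a pseudocount of 10, to -1.27 after thinning, to -0.85 with edgeR without a filter and to -1.29 with DESeq2, and ranged from -1.70 to 1.58 without single libraries, as miR-363-3p did from -3.49 to 0.072. The difference in cluster share was 29.8 percentage points after thinning to 50489 reads and 19.2 to 53.7 without single libraries. The causes were not tested.

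Over all entries, the 112 calls of higher level became 62 with a pseudocount of 10, 69 with a mean RPM of at least 10, 23 among entries detected in all libraries, 47 after thinning, 48 and 56 with edgeR with and without its filter, and 65 with DESeq2, and ran from 33 to 150 without single libraries. The 13 calls of lower level became 8 with a pseudocount of 0.1, 3 with TMM factors, 7 after thinning, 21 and 7 with edgeR with and without its filter, and 50 with DESeq2, and ran from 1 to 26 without single libraries. With the replicate number as a block, 0 entries were called higher and 0 lower, and 0 members. The deviations of same-numbered libraries had correlations of -0.054, 0.13 and -0.11 over the entries detected in all libraries. Those of differently numbered libraries ran from -0.20 to 0.21. Whether same-numbered libraries were prepared together is not given in the sources used here, and correlations over so few libraries cannot decide it.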

Other observations

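A second seed group is spread over the same clusters and was counted by more reads. miR-25-3p from Mcm7, miR-92a-3p from the miR-17-92 and X-linked rows and miR-363-3p from the X-linked row share bases 2 to 8, shown in capitals.
miR-25-3p: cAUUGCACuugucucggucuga
miR-92a-3p: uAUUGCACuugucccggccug
miR-363-3p: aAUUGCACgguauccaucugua
miR-25-3p made up 512 of their 529 reads in NCD 1, 73 of 88 in NCD 2 and 27 of 31 in NCD 3, or 96.8%, 83.0% and 87.1%. In HFD 1, 2 and 3 its share was 97.7%, 99.2% and 99.1% of 2023, 2026 and 639 reads. Each aid-sEV share lay above each nid-sEV share, but the 95% Wilson intervals of the closest libraries overlapped, with 94.9% to 98.0% in NCD 1 and 97.0% to 98.3% in HFD 1. This comparison was chosen after the values were seen, and no test was made of it.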
